A study of Mus musculus with 12 samples.

Results

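The genes described here are Slx1b and 7 genes whose proteins work with it or beside it as structure-specific endonucleases: Slx4, Mus81, Eme1, Eme2, Gen1, Ercc1 and Ercc4. They were taken by gene symbol from the platform annotation, and all 8 were present, on 9 of the 26423 probes and as 8 of 17742 named genes. Slx1b was chosen by its difference between the groups of these same samples, so its own values are a description and carry no test. The other 7 were chosen as its partners, with earlier results of these data known.

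Gene expression was measured on 12 one-colour arrays of whole heart RNA, taken on postnatal day 8 from mice of a C57bl/6 X 129 hybrid background. The mutant group, labelled Salv CKO, was a conditional knockout of Salvador (Sav1), a scaffold of the Hippo kinase pathway, and the other group, Control, is labelled wild-type. Each group had 2 biological samples, and the RNA of each sample was put on 3 technical arrays, which were averaged and counted as 1 replicate. The sources used here do not give the promoter driving Cre, the deleted part of Sav1, or whether a sample was 1 heart or a pool, and the source label speaks of embryonic heart where the stage label gives postnatal day 8.

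Structure-specific endonucleases cut DNA at branches rather than at a sequence. SLX1 carries the cutting site and needs SLX4 for its activity. SLX4 is a large scaffold that also holds MUS81 with EME1 and XPF (the product of Ercc4) with ERCC1. These complexes, and the separate resolvase GEN1, cut joined chromosomes apart after recombination or stalled replication, chiefly in cells that are about to divide, and XPF with ERCC1 also cuts beside bulky DNA damage in nucleotide excision repair. Heart muscle cells divide before birth and largely leave the cell cycle in the days after it.

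The deposited values are background-subtracted probe intensities. They were brought to a common distribution between arrays by quantile normalization and are given here as log2(intensity + 1). The added 1 shrinks ratios of dim probes, but scatter at the lowest intensities stays wide on this scale. A difference of dim probes can thus be too small or too large. A probe's level depends on its sequence, and levels are compared between samples only, never between genes. Array medians lay between 58 and 88 and 75th percentiles between 348 and 542 before normalization. Deposited values went down to -10, so intensities of 10 or less are treated here as at background. The heart muscle markers Nppa, Actc1 and Tnnt2 were bright in every sample, and the 5 measured of 10 such markers had levels from 14.68 to 15.62. The precision of every comparison is limited by the number of samples, 2 in each group. SEs and p-values from limma combine the spread between these samples with a spread pooled over all probes. They can therefore be larger or smaller than the scatter of a gene's own samples would give.

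Sav1, the targeted gene, did not separate the groups. Salv CKO 1 and 2 had levels of 8.06 and 8.52, and Control 1 and 2 had 8.75 and 8.08, a difference of -0.12 ± 0.34 (SE, n = 2 samples each, limma adjusted p = 0.999). The sign became positive without Salv CKO 1 (0.11) or without Control 1 (0.21). Every direction below is therefore that of the samples labelled Salv CKO against those labelled Control.

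Slx1b stands on the minus strand of chromosome 7, and its start faces that of Bola2, a gene of iron-sulphur cluster assembly, on the opposite strand. Eme1 and Gen1 likewise face another gene, Mrpl27 (a mitochondrial ribosomal protein) and Smc6 (a subunit of the SMC5/6 complex in recombination). The start regions of these 3 members are shown because each is shared by a pair of genes whose levels can be set side by side. Each sequence is the RefSeq window from 250 bases before to 50 bases after the gene's start in build GRCm38.p6, read 5′ to 3′ on the gene's strand. They lie at chr7:126695734-126696033 for Slx1b, chr11:94653694-94653993 for Eme1 and chr12:11265758-11266057 for Gen1, all on the minus strand. Capitals mark matches, on either strand, to 6 short motifs. The shorter motif of the ETS factors, a large family that binds many housekeeping promoters, is CGGAAG. The longer ETS motif puts 1 further C before it and so always contains it. The box bound by the trimeric factor NF-Y, common in promoters of genes of the cell cycle, is CCAAT. The CHR element, found at many genes that are switched on for mitosis, is TTTGAA. The motif taken for E2F, the factors that drive genes of DNA synthesis, is GCGGGAA. The motif of TEAD, the factors through which the Hippo pathway acts on its target genes, is GGAATG.
Slx1b: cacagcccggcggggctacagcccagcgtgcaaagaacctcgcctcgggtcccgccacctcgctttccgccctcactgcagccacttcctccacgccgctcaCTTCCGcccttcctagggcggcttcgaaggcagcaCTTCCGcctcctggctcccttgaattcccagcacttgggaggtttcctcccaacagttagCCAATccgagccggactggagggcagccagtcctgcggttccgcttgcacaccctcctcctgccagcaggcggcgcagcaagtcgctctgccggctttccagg
Eme1: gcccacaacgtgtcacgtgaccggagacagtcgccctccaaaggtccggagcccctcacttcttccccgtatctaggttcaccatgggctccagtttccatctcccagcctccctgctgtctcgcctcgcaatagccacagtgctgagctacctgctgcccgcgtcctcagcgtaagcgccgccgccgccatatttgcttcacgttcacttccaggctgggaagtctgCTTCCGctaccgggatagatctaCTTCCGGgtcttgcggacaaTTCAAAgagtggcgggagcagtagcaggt
Gen1: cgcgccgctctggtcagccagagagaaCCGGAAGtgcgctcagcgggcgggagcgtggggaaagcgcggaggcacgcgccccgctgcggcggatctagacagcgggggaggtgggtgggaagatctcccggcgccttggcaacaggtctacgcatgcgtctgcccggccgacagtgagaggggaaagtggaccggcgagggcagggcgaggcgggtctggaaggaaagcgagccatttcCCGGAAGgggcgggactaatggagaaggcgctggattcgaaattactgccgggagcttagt

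The Slx1b window held 2 matches to the shorter ETS motif and 1 to the NF-Y box, and none to the TEAD, E2F or CHR motifs. All 8 members had a window in the RefSeq table. The shorter ETS motif was present in those of 5 members (Slx1b, Eme1, Eme2, Gen1 and Ercc1), against 17.2% of 27025 windows of all genes, and the longer one in 4, against 9.12%. The NF-Y box was present in 3 (Slx1b, Slx4 and Ercc4) against 37.9%, the CHR motif in Eme1 alone against 18.1%, and the TEAD motif in Ercc4 alone against 14.6%. The E2F motif was in none of the 8, against 4.66%. These matches describe the letters only. In the 5 windows with the shorter ETS motif, G and C made up 57.0% to 67.0% of the bases. In the remaining members' windows they made up 41.3% to 53.3%, and the median over all windows was 52.7%. The shares over all genes were not matched for this content. The sources used here do not give the positions of the array probes, so no probe is placed on these windows.

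Slx1b, the catalytic subunit of SLX1-SLX4, was about 10.9 times as bright in the samples labelled Salv CKO as in the controls. On the 12 arrays its deposited intensities were 131, 150 and 122 in Salv CKO 1 and 177, 166 and 181 in Salv CKO 2. In Control 1 they were 13, 15 and 13, and in Control 2 they were 11, 9 and 10. All 6 mutant arrays lay above all 6 control arrays, with a wide gap between 15 and 122, and 2 control arrays were at background. On the log2 scale the levels were 7.13 and 7.26 against 4.04 and 3.60, a difference of 3.38 ± 0.25 (SE, n = 2 each). The SD between technical arrays was 0.03 and 0.08 in the mutant samples and 0.32 and 0.11 in the controls. Because the controls are close to background, the size depends on the constant added before the log: it was 2.47 with 16 in place of 1. A ratio that uses control intensities this low is uncertain, while the separation of the arrays does not depend on it.

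**Figure D1:**
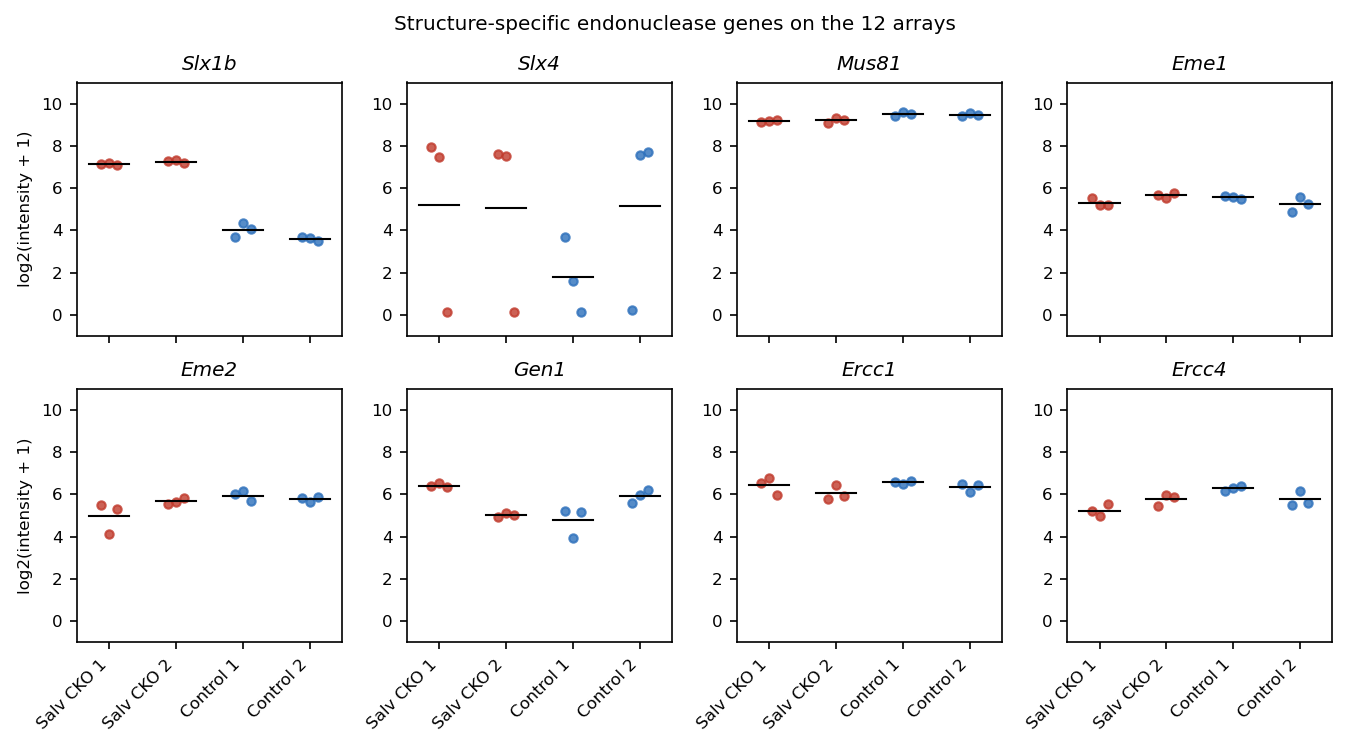
Level of each of the 8 genes, as log2(intensity + 1) after quantile normalization, in the 4 samples. Each point is 1 technical array and each black bar the mean of the 3 arrays of a sample, with Salv CKO in red and Control in blue. Slx1b arrays lie from 7.11 to 7.34 in Salv CKO and from 3.48 to 4.34 in Control, and Slx4 arrays split into high and low values within a sample.

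Among the 7 partners no gene passed the test. In limma, 0 of 7 had an adjusted p under 0.05 and 0 had an unadjusted p under 0.05 (smallest 0.155), where 0.0% of the named genes passed the first threshold and 3.32% the second. Differences were positive for 3 partners and negative for 4, with a median of -0.22, against -0.02 over all named genes. The 2 samples of one group lay beyond both of the other for 2 partners, Mus81 and Eme2, both lower in Salv CKO, where 16.5% of named genes were lower without overlap. None was higher without overlap, where 14.2% of named genes were. These are small counts in which each gene weighs much.

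**Figure D2:**
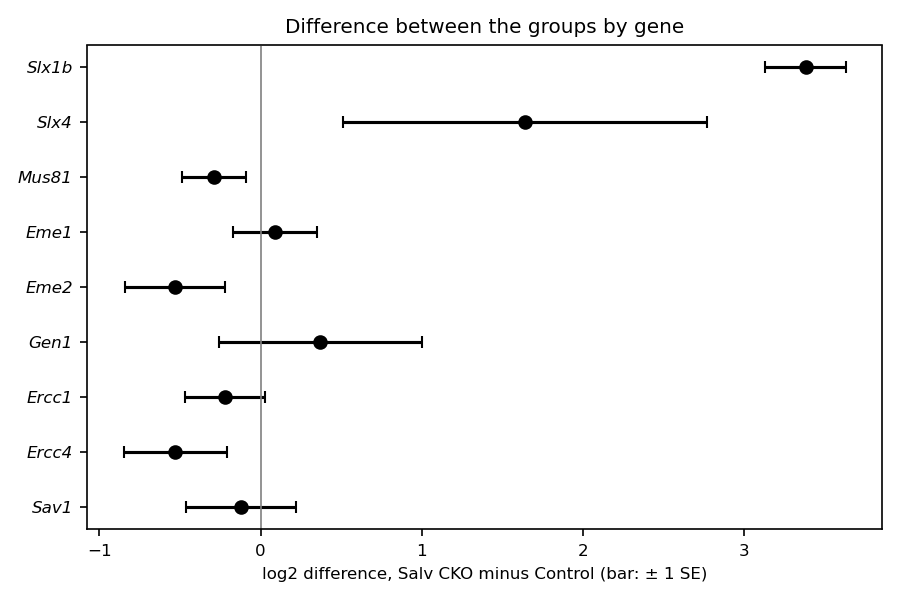
Difference between the group means on the log2 scale, Salv CKO minus Control, for the 8 genes and Sav1. Bars show 1 SE from limma with 2 samples in each group. Slx1b stands at 3.38, Slx4 at 1.64 with a wide bar of 1.13, and the others between -0.53 and 0.37.

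Slx4, the scaffold that binds SLX1, could not be read reliably. Its deposited intensities were 221, 180 and 0 on the arrays of Salv CKO 1, and 230, 188 and -3 on those of Salv CKO 2. Control 1 gave 13, 2 and -6, whereas Control 2 gave 0, 162 and 206. In 3 of the 4 samples, arrays of the same RNA therefore differed between background and a clear signal, and the technical SD on the log2 scale was 4.39, 4.30 and 4.28 in these samples. The sample means were 5.18 and 5.08 in Salv CKO against 1.81 and 5.17 in the controls, so the groups overlapped, and the difference was 1.64 ± 1.13 (SE, n = 2 each, limma adjusted p = 0.999). Without Control 1 the difference was -0.04, and without Control 2 it was 3.32 (limma adjusted p = 0.418), so it rested on Control 1. With the median in place of the mean of technical arrays it was 2.88.

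Such behaviour was rare on this platform. Of all 26423 probes, 72 (0.272%) had, in at least 1 sample, one array at 10 or less and another at 100 or more. In at least 3 samples this held for 11 probes (0.0416%), 1 of them the Slx4 probe and 1 the probe of Pitpnm1, which did so in all 4 samples. No other probe of the 8 genes did so in any sample. The definition was chosen after the Slx4 values were seen.

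Mus81, the catalytic subunit of MUS81-EME1 and MUS81-EME2, was measured evenly. Its levels were 9.20 and 9.22 in Salv CKO and 9.51 and 9.48 in Control, and the arrays ran from 9.10 to 9.34 against 9.43 to 9.58. After normalization all 6 mutant arrays thus lay below all 6 control arrays, but the step was small, -0.29 ± 0.20 (SE, n = 2 each, limma adjusted p = 0.999), or 0.819 times the control intensity. In the deposited intensities, before normalization, the samples averaged 501 and 704 against 776 and 647, and the groups overlapped. The lower level of Mus81 without overlap was thus lost without normalization. It was kept with arrays centred on their medians and with arrays scaled to the same 75th percentile. The difference of Mus81 lay between -0.45 and -0.26 in the alternatives that change the scaling, the averaging or the samples. Those that change only the fit or the probes used leave it at -0.29 by design.

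Neither of the subunits that pair with MUS81 passed the test. Eme1, at 5.31 and 5.66 in Salv CKO and 5.57 and 5.24 in Control, overlapped between the groups and differed by 0.09 ± 0.26 (SE, limma adjusted p = 0.999). Its arrays gave deposited intensities of 34 to 67 in Salv CKO and 26 to 52 in Control. Eme2, the partner of MUS81 in S phase, had levels of 4.98 and 5.67 against 5.94 and 5.77, a difference of -0.53 ± 0.31 (SE, limma adjusted p = 0.999). The gap between the lower control and the higher mutant sample was narrow, and the difference was -0.18 without Salv CKO 1 and -0.88 without Salv CKO 2. One array of Salv CKO 1 read 21 where the other arrays of that sample read 46 and 37, and the technical SD there was 0.74, against at most 0.24 in the other samples.

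Gen1, the resolvase that acts outside the SLX4 complex, varied more between samples of a group than between the groups. Its levels were 6.42 and 5.02 in Salv CKO 1 and 2, and Control 1 and 2 had 4.77 and 5.91. The arrays of Salv CKO 1 read 82, 100 and 73 and those of Salv CKO 2 read 34, 33 and 42. Control 1 gave 40, 12 and 28, and Control 2 gave 45, 51 and 74. The samples Salv CKO 1 and Control 2 were high and the remaining pair low, so the groups overlapped. The difference was 0.37 ± 0.63 (SE, n = 2 each, limma adjusted p = 0.999), and it turned negative without Salv CKO 1 (-0.33) or without Control 1 (-0.20), and was 1.07 without Salv CKO 2 and 0.95 without Control 2.

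The XPF-ERCC1 nuclease, which cuts beside DNA lesions and crosslinks, had no subunit that passed. Ercc4, which encodes the cutting subunit XPF, had levels of 5.23 and 5.77 in Salv CKO against 6.28 and 5.77 in Control, with Salv CKO 2 and Control 2 nearly equal. The difference was -0.53 ± 0.32 (SE, limma adjusted p = 0.999) and came to -0.25 without Salv CKO 1 and -0.27 without Control 1, but to -0.80 without Salv CKO 2 and -0.78 without Control 2. Ercc1, its partner subunit, had 2 probes. The brighter one stood at 6.43 and 6.05 against 6.57 and 6.34, with overlap, and differed by -0.22 ± 0.25 (SE, limma adjusted p = 0.999). With 1 sample left out that difference lay between -0.41 (without Salv CKO 1) and -0.03 (without Salv CKO 2), and it was -0.11 without Control 1, -0.33 without Control 2 and -0.05 without normalization. The other was at background on all 12 arrays, with deposited intensities from -5 to 4, and gives no information on Ercc1.

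**Figure D3:**
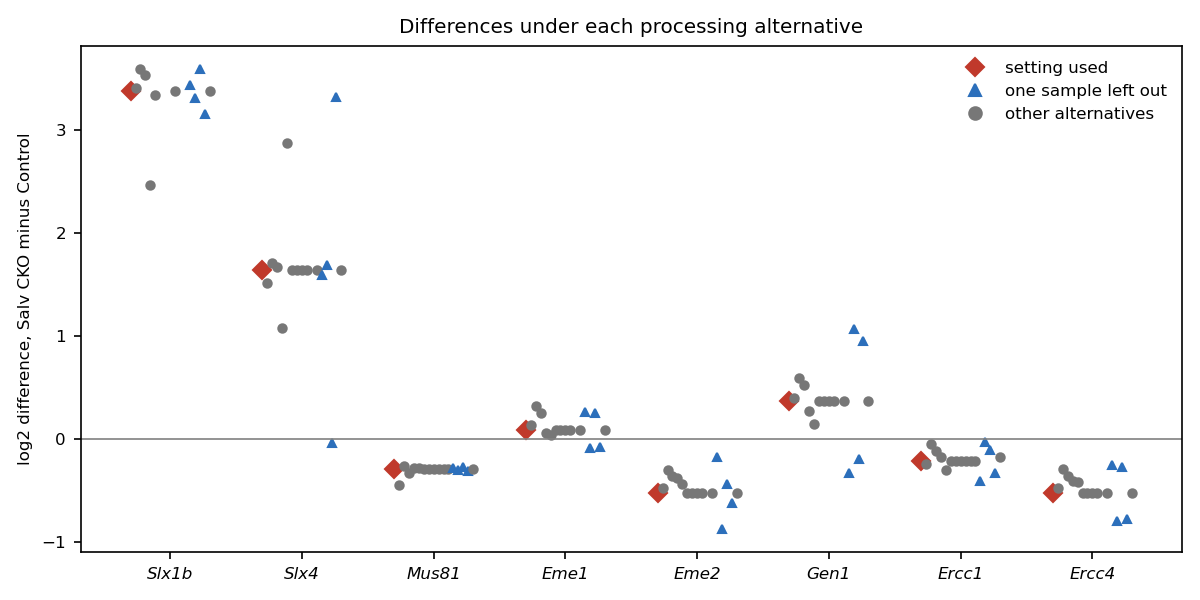
Log2 difference, Salv CKO minus Control, of each gene in the setting used (red diamonds), with 1 sample left out (blue triangles) and in the other alternatives (grey circles). Slx1b lies between 2.47 and 3.60 throughout, whereas Slx4 and Gen1 cross 0 when single samples are left out.

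The gene that faces Slx1b did not share its difference. The RefSeq start windows of Slx1b and Bola2 have 284 of their 300 bases in common, and their starts are 217 bases apart. Bola2 levels were 8.59 and 8.74 in Salv CKO and 9.11 and 8.40 in Control, a difference of -0.09 ± 0.31 (SE, limma adjusted p = 1.0), beside 3.38 for Slx1b. On the other side, Sult1a1, a sulphotransferase gene, overlaps Slx1b in the annotation, with a difference of 0.04 ± 0.22 (SE, limma adjusted p = 1.0) between 10.97 and 10.89 in Salv CKO and 10.77 and 11.01 in Control.

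Of the 8 measured genes nearest to Slx1b, 4 on each side, none passed the test over all probes. Without overlap between the groups, 2 of the 8 were higher in Salv CKO (Il27 and Mapk3) and 2 lower (Nupr1 and Gdpd3), beside 14.2% and 16.5% of named genes. Coro1a, which encodes an actin-binding protein of blood cells, differed by -0.10, the kinase gene Mapk3 by 0.30 and the cytokine gene Il27 by 0.21. Sgf29 differed by 0.46 ± 0.43 (SE), with Control 1 alone low at 7.97 against 8.92 to 9.11. Nupr1, a stress-response gene, differed by -0.70 ± 0.29 (limma adjusted p = 0.999). Gdpd3, a phosphodiesterase gene, was at 9.79 and 9.73 in Salv CKO against 10.68 and 11.19 in Control, a difference of -1.17 ± 0.26 (SE, limma unadjusted p = 0.0081, adjusted p = 0.999), in the direction opposite to Slx1b.

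**Figure D4:**
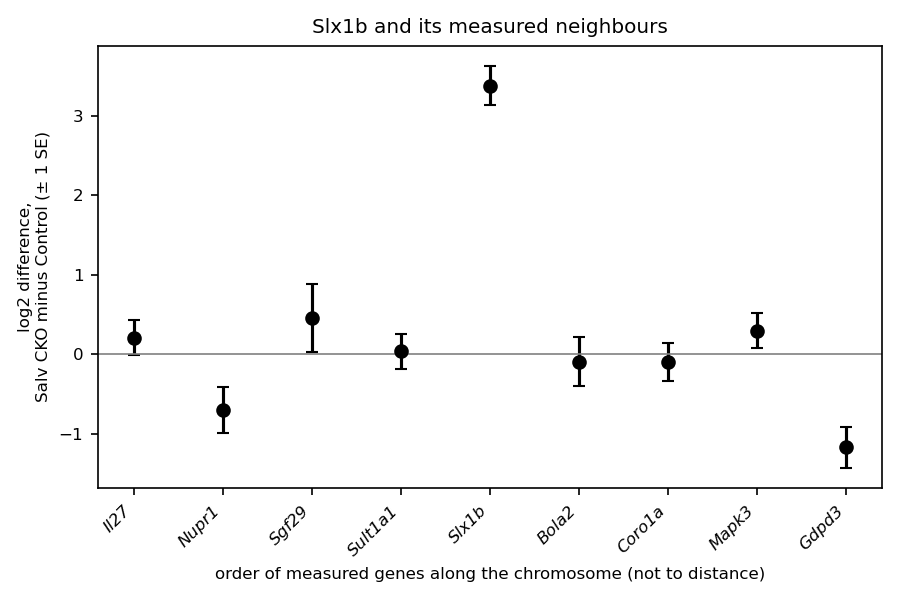
Log2 difference, Salv CKO minus Control, of Slx1b and the 4 measured genes on each side of it in the RefSeq order of chromosome 7, with bars of 1 SE. The horizontal axis gives order and not distance. Slx1b stands at 3.38, and its neighbours lie between -1.17 and 0.46.

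At the other facing pairs the differences were small on both sides. Mrpl27, whose start lies 48 bases from that of Eme1, differed by 0.02 ± 0.21 (SE, limma adjusted p = 1.0), and its 4 samples spanned 0.10 on the log2 scale, against 0.43 for Eme1. Smc6, 79 bases from the start of Gen1, differed by 0.09 ± 0.21 (SE, limma adjusted p = 0.999). Its 4 samples spanned 0.20 on the log2 scale, against 1.64 for Gen1.

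The genes whose levels most resembled those of Slx1b over the 12 arrays were Rbfox1, Tecrl, Dbf4, Pou6f1 and Ears2, with Pearson correlations from 0.991 to 0.996 among 10594 genes at or above the median level. The arrays come from only 4 samples, and Slx1b was chosen for its group difference, and the 8 genes named here likewise had no overlap between the labels. Rbfox1, an RNA-binding splicing regulator, stood at 11.31 and 11.37 in Salv CKO against 10.55 and 10.47 in Control. Dbf4, the activator of the kinase that starts DNA replication, stood at 9.52 and 9.46 against 8.93 and 8.87. Ears2, the mitochondrial glutamyl-tRNA synthetase gene, stood at 11.05 and 11.06 against 9.92 and 9.57. The most opposite were Itga9, an integrin gene (r = -0.992), Lrrc3b (r = -0.991) and Plekhh1 (r = -0.991).

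Genes of the pathways around these nucleases showed no call either. None of the genes in the 12 lists of repair and marker genes passed an adjusted p of 0.05 in limma, and at an unadjusted p under 0.05 there was 1 of the 6 measured binding partners of SLX4, 7 of the 13 measured mitosis markers (Plk1 is in both lists) and 1 of the 10 adipocyte markers, beside 3.32% of named genes. Fanconi anaemia and crosslink repair genes, the pathway in which SLX4 acts at DNA crosslinks, had 13 of 19 positive differences and a median of 0.17, and 6 were higher and 1 lower without overlap, beside 14.2% and 16.5% of named genes. That median was 0.06 without Control 1 and 0.31 without normalization. Mad2l2, a subunit of the translesion polymerase zeta, differed by 0.37 ± 0.27 (SE), and Rev3l, its catalytic subunit, by 0.35 ± 0.31. Control 1 alone was low for both, at 9.47 against 9.97 to 10.21 for Mad2l2 and 7.95 against 8.60 to 8.73 for Rev3l. Homologous recombination genes had 15 of 21 positive, and 4 were higher and 0 lower without overlap, beside the same shares. Their median of 0.03 was 0.15 without Control 1, -0.04 without Control 2 and 0.21 without normalization. There Rad50, of the MRE11 complex that holds broken ends, had levels of 8.24 and 8.26 against 7.94 and 7.86 in Control, a difference of 0.34 ± 0.21.

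Genes that undo joint molecules without cutting, such as Blm and its partners, had 3 of 12 positive differences and a median of -0.10. That median ran from -0.18 without Control 2 to -0.01 without Control 1 and was 0.01 without normalization. Without overlap, 2 were higher and 2 lower, beside 14.2% and 16.5% of named genes. The gene there with the second smallest p, Recql, had a negative difference but was at background in all 4 samples. Of the 3 with positive differences, the helicase-like gene Mcm9 differed by 0.63 ± 0.30 (SE), at 6.45 and 6.44 against 5.47 and 6.14, and Rmi1, a subunit of the BLM complex, by 0.25 ± 0.23. Nucleotide excision repair genes had 6 of 17 positive, and 2 were higher and 1 lower without overlap, beside the same shares. Their median of -0.04 ran from -0.21 without Control 2 to 0.05 without Control 1. There Gtf2h4, a subunit of the repair and transcription factor TFIIH, differed by -0.40 ± 0.26, with Control 1 high at 9.5 beside 9.01 in Control 2 and 8.83 and 8.89 in Salv CKO. Other structure-selective nucleases, among them Fan1, Exo1 and Dclre1c, had 11 of 16 positive and a median of 0.03. That median was -0.06 with arrays centred on their medians, 0.13 without normalization and -0.04 without Control 2. Of these 16 genes, 0 were higher and 0 lower without overlap, beside 14.2% and 16.5% of named genes.

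Among the 6 measured of 8 binding partners of SLX4, 4 differences were positive, with a median of 0.21, and 3 were higher without overlap, beside 14.2% of named genes. That median was 0.12 without Salv CKO 1, 0.30 without Salv CKO 2, 0.10 with arrays centred on their medians and 0.08 without the dimmest 50% of probes. Slx4ip, an SLX4-interacting protein, had levels of 6.15 and 6.16 in Salv CKO against 5.66 and 5.73 in Control, a difference of 0.46 ± 0.21 (SE, limma unadjusted p = 0.0799, adjusted p = 0.999). Plk1, a mitotic kinase, differed by 0.93 ± 0.31 (SE, limma unadjusted p = 0.033, adjusted p = 0.999), with levels of 8.00 and 7.67 against 7.22 and 6.59. It is also one of the mitosis markers. Terf2, which protects chromosome ends and recruits SLX4 there, differed by 0.34 ± 0.25. Its levels were 8.06 and 7.83 in Salv CKO against 7.43 and 7.78 in Control, with Control 2 close to Salv CKO 2.

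**Figure D5:**
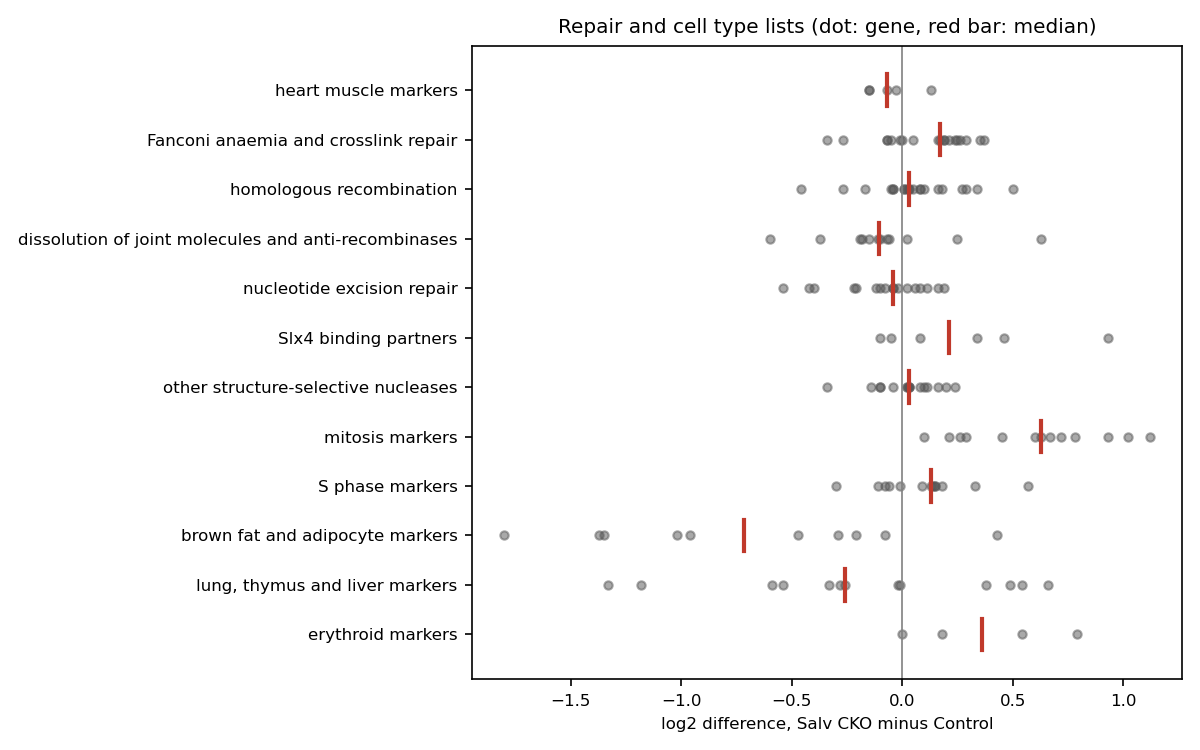
Log2 difference, Salv CKO minus Control, of every measured gene of the repair and marker lists (grey dots), with the median of each list as a red bar. Mitosis markers lie to the right with a median of 0.63 and adipocyte markers to the left with a median of -0.72, while the repair lists have medians between -0.10 and 0.21.

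No marker of dividing cells passed the test, but their differences were mostly of 1 sign. All 13 measured mitosis markers had positive differences, with a median of 0.63, and 10 were higher without overlap, beside 14.2% of named genes. The groups overlapped for Cdk1, Kif11 and Nusap1. Ccnb2, a cyclin of mitosis, was at 8.54 and 8.20 in Salv CKO against 6.87 and 7.63 in Control, a difference of 1.12 ± 0.34 (SE, limma unadjusted p = 0.0251, adjusted p = 0.999). All 13 were positive under each scaling of the arrays. With 1 sample left out, 10 to 13 of the 13 were positive. The log2 of their summed intensity was 12.88 and 12.81 in Salv CKO and 12.13 and 12.32 in Control. S phase markers had 8 of 13 positive, and 5 were higher and 2 lower without overlap, beside 14.2% and 16.5% of named genes. Their median of 0.13 was -0.05 with arrays centred on their medians and 0.01 to 0.09 with 1 sample left out. Their sums were 12.76 and 12.82 against 12.70 and 12.69, and Cdc6 of this list was at background in all 4 samples. The part of the mitosis and S phase markers in the Slx1b difference was not tested. In whole-heart RNA a change in the number of dividing cells and in RNA per cell cannot be told apart.

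Markers of tissue beside the heart differed between samples as well. Of 10 brown fat and adipocyte markers, 9 had negative differences (8 without normalization, with a common 75th percentile or with the median of technical arrays), with a median of -0.72, and 6 were lower and 1 higher without overlap, beside 16.5% and 14.2% of named genes. The median was -1.18 without Salv CKO 1 and -0.24 without Salv CKO 2. Their summed level was 14.38 and 14.00 in Salv CKO against 14.75 and 14.49 in Control. Fabp4 made up 55.7% to 76.1% of that sum, and without it the summed levels were 13.02 and 11.94 against 13.58 and 13.13. Lung, thymus and liver markers had 9 of 13 negative and a median of -0.26, which was 0.22 without Salv CKO 2 or without Control 2, and 8 of the 13 were at background in at least 1 sample. Their summed level was 10.15 and 11.55 in Salv CKO 1 and Control 2 against 8.87 and 8.79 in Salv CKO 2 and Control 1. One lung gene, Scgb1a1, a secreted protein of the airway lining, made up 48.7% and 77.9% of that sum in Salv CKO 1 and Control 2, with levels of 8.14 and 11.19, against 4.07 and 3.68 in Salv CKO 2 and Control 1. Without it the summed levels were 9.19 and 9.37 against 8.82 and 8.75. Sftpc, at 5.19 and 5.62 against 4.59 and 4.67, and Cd3e, at 7.75 and 7.65 against 7.08 and 7.20, were also higher in Salv CKO 1 and Control 2. So were Sftpb, Cd4, Dntt and Apoa1. The liver gene Ttr, at 7.16 and 7.54 against 7.05 and 7.23, did not separate these samples, nor did Sftpa1, Cd8a, Rag1, Alb and Afp. Salv CKO 1 and Control 2 were also the high pair for Gen1. Fancm, of the Fanconi anaemia list, split the same way, at 8.25 and 8.22 against 5.55 and 5.25. The share of all named genes that split so was not counted. Erythroid markers, 4 of 8 measured, had summed levels of 13.15 and 13.74 in Salv CKO against 13.43 and 12.37 in Control, lowest in Control 2. Alas2 alone made up 94.5% to 96.5% of these sums, and without it they were 8.77 and 9.37 against 9.24 and 7.55. The median difference of the erythroid markers, 0.36, was -0.18 without Control 2. At background in all 4 samples were Elovl3 of the adipocyte list and Cd4, Rag1 and Afp of the lung, thymus and liver list, and no erythroid or mitosis marker. The part of these lists in the values of Slx1b and its partners was not tested.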

How the data were processed

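Whole hearts of 4 samples were measured on 12 one-colour arrays. Per the labels' protocols, amino-allyl aRNA was made from total RNA and coupled to Cy5. The deposited values are whole-number intensities from -10 to 65474 for 26423 probes. The sources used here do not give the scanner, the background method or any normalization. Probes were named from the platform annotation (20377 had 1 symbol, 6046 none) and updated through RefSeq GRCm38.p6 (18213 matched by symbol, 2126 by a unique synonym, 38 not). Arrays were quantile normalized, values under 0.0833 were set to it, log2(value + 1) was taken, and the 3 technical arrays were averaged.

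The groups were compared with limma 3.58.1 in R 4.3.3 (lmFit, eBayes), with 2 residual and 2.6 prior degrees of freedom, by two-sided tests with Benjamini-Hochberg adjustment over all probes and a threshold of 0.05. The fit was tested on simulated data with known changes. For genes with more than 1 probe the brightest was used. Named genes are the 8 members, Sav1, at most 3 genes with the smallest p of each of 12 lists, the 5 most and 3 least correlated genes with Slx1b and 4 measured neighbours on each side. Bola2, Mrpl27, Smc6 and the on-and-off probes were added after their values or positions were seen. Further list genes were also named by their values: for overlap (Cdk1, Kif11, Nusap1), background (Elovl3, Cd4, Rag1) or part in a sum (Scgb1a1, Fabp4). Fancm and the remaining lung, thymus and liver markers, such as Ttr, were named for whether they separated samples. Blm is named as an example of its list. The shorter ETS motif, the choice of start windows shown and the use of 1 floor in all alternatives were likewise settled after results were seen. The members and lists were chosen with earlier results of these data known. Figures used matplotlib 3.10.9.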

Additional observations from a re-analysis of the deposited data

How the results depend on the processing

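The count of 0 partner genes and of 0 listed genes called by limma stayed at 0 in every alternative run. Over all probes 0 were called, and 2 with arrays centred on their medians, 8 without normalization and 61 when all 12 arrays were fitted with samples as random blocks, none of them the probe used for a partner or a listed gene. Same-numbered samples share only a number (correlation of their deviations from the group means -0.25). With the replicate block the count was 0, and with a crossed replicate block, added after seeing the data, it was 0. The 3 members without overlap (Slx1b, Mus81, Eme2) became 5 with arrays scaled to the same 75th percentile (beside 31.1% of all named genes), 2 without normalization (Slx1b and Slx4, so Mus81 and Eme2 were lost, beside 24.8%) and 1 without the dimmest 50% of probes, where only 2 members remained (beside 29.8%). In the setting used the share of named genes was 30.7%. Slx1b was chosen for its difference between the groups, so its place in these counts was fixed in advance. Only the partners can be set beside the shares, and in the setting used 2 of the 7 had no overlap, both lower. With 1 sample left out the count was 4 to 7, when fewer samples have to be separated, beside 54.7% to 76.9% of named genes. The Slx1b difference, 3.38, was 2.47 with a constant of 16 and ran from 3.16 to 3.60 with 1 sample left out. With 1 sample left out, Slx4 ran from -0.04 to 3.32, Eme1 from -0.09 to 0.26, Gen1 from -0.33 to 1.07 and Sav1 from -0.46 to 0.21. A lone sample was assumed to vary like the other group. In Control 2 Slx1b read 9 to 11, near background, which limits how well its level there is known.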
